A study of Mus musculus with 20 samples.

Results

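The tubular injury genes are 10 genes that kidney tubule cells are known to raise, or to keep on, after damage: Havcr1, Lcn2, Vcam1, Spp1, Clu, Krt8, Krt18, Sox9, Timp1 and Epcam. They were found by matching each symbol to its Ensembl identifier, and all 10 were among the 57010 genes of the deposited count table. Their RNA was measured in 20 mRNA-seq libraries of flash-frozen kidney and liver. Male mice of the UM-HET3 stock, 12 months old, received the 7c cocktail or only its solvent (vehicle, 50% DMSO and 50% PEG300) for 28 days from osmotic pumps implanted under the skin. The cocktail held TTNPB, forskolin, CHIR99021, DZNep, tranylcypromine and repsox at 0.1 mg/kg/day each, and valproate at 1 mg/kg/day. Each tissue had 6 libraries of 7c mice and 4 of vehicle mice. UM-HET3 mice are a genetically heterogeneous cross, so replicates differ in genotype, and every vehicle mouse also carried a pump with solvent.

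Havcr1 encodes KIM-1, a membrane receptor that healthy proximal tubule cells hardly make and injured ones display, and Lcn2 encodes NGAL, a secreted iron-siderophore carrier used as a marker of kidney damage. Proximal tubule cells that fail to repair are known for Vcam1, an adhesion molecule for leukocytes, while Spp1 (osteopontin) and Clu (clusterin) encode secreted proteins that rise in stressed tubules and are also made in healthy tissue. Krt8 and Krt18 encode the partner keratins of simple epithelia. Sox9 encodes a transcription factor of tubule repair and of bile ducts, Timp1 an inhibitor of matrix metalloproteinases, and Epcam an adhesion molecule of epithelial cells such as those of distal tubules, collecting ducts and bile ducts.

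Library totals ran from 27855849 to 64872451 counts in kidney and from 28383359 to 34153084 in liver, where every 7c library (up to 30571119) was smaller than every vehicle library (from 31670440). Expression is given as CPM, a gene's count scaled to the size of its library after TMM normalization (edgeR) within a tissue. The summed CPM of 7 proximal tubule markers was 35705 to 71633 in kidney and at most 1.65 in liver, while 7 hepatocyte markers summed to 72339 to 105412 in liver and to 98.4 to 355 in kidney, so each tissue carried the markers of its label. A gene was tested where at least 10 counts were present in at least 50% of the libraries of a tissue. All 10 members passed in kidney and 8 in liver, where Havcr1 and Timp1 did not. In bulk tissue, fewer cells of a type and less RNA per cell cannot be told apart. The study took livers and kidneys from the same mice, but the labels do not say whether a library number marks a mouse.

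In kidney, none of the 10 members was called for 7c by edgeR's quasi-likelihood F-test at an adjusted p of 0.05, and their log2 fold changes ran from -0.50 for Vcam1 to 0.95 for Timp1. The same test called 0 of 17749 kidney genes, 0%, and every member had an adjusted p of 0.997 (edgeR). At an unadjusted p under 0.05, 0 of the 10 members passed, beside 463 genes or 2.61% of all genes. DESeq2 and limma-voom also called 0 of the 10. For 0 of the 10 did the groups separate fully, beside 0.310% of genes with all 7c kidneys above all vehicle kidneys and 0.406% with all below. The median log2 fold change of the members was 0.09, against -0.01 over all genes tested, with 6 members above 0 and 4 below.

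Havcr1 (ENSMUSG00000040405, chromosome 11 of GRCm39, 46625907 to 46670405, plus strand) had 15.4, 0.613, 26.6 and 2.16 CPM in the vehicle kidneys. The 7c kidneys ran from 1.18 CPM through a median of 8.05 to 22.9 CPM, inside the vehicle range. The highest vehicle kidney had 43.5 times the level of the lowest, from 22 to 996 counts. Its log2 fold change was -0.09 with a 95% confidence interval from -2.04 to 1.85, so changes of up to these sizes in either direction could not be told from none. Leaving out 1 library moved the value from -0.48 to 0.79, and it was 0.79 without vehicle replicate 3, the highest kidney.

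Lcn2 (ENSMUSG00000026822, chromosome 2, 32274645 to 32278264, minus strand) was low in kidney, with 1.36, 1.50, 3.58 and 0.628 CPM in the vehicle group. In the 7c group it ran from 0.648 through 1.08 to 4.88 CPM, and 5 of these 6 kidneys lay inside the vehicle range. The log2 fold change was -0.08 (standard error 0.609, 95% confidence interval -1.40 to 1.24). Without vehicle replicate 3 it was 0.52 and without 7c replicate 5 it was -0.75, so the direction rested on single kidneys.

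Vcam1 (ENSMUSG00000027962, chromosome 3, 115903598 to 115923355, minus strand) had the lowest fold change of the 10. The vehicle kidneys had 9.49, 6.41, 18.4 and 7.54 CPM, and the 7c kidneys 6.29 to 9.37 CPM with a median of 6.89. The groups overlapped, with 2 of 6 7c kidneys under the vehicle range. The log2 fold change of -0.50 (standard error 0.264, unadjusted p = 0.0790 by edgeR) was -0.08 without vehicle replicate 3, the kidney at 18.4 CPM. That kidney also had the highest vehicle level of Havcr1, Lcn2, Spp1, Sox9 and Timp1.

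Among the secreted proteins, Spp1 (ENSMUSG00000029304, chromosome 5, 104582165 to 104589235, plus strand) was abundant and narrow in range. It had 358, 372, 549 and 372 CPM in vehicle kidneys and 373 to 488 CPM in 7c kidneys, with a log2 fold change of 0.03 (95% confidence interval -0.27 to 0.33). Clu (ENSMUSG00000022037, chromosome 14, 66190200 to 66218999, plus strand) had 282, 377, 262 and 361 CPM in vehicle kidneys and 319 to 410 CPM in 7c kidneys. Its log2 fold change was 0.17 (95% confidence interval -0.11 to 0.46), with 3 of 6 7c kidneys above the vehicle range. For this pair the intervals were narrow enough to leave out a change of 1 on the log2 scale in either direction.

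Timp1 (ENSMUSG00000001131, chromosome X, 20736316 to 20740976, plus strand) was near the limit of these libraries. The vehicle kidneys held 0, 10, 22 and 6 counts and the 7c kidneys 4 to 52 counts, or 0.120 to 1.25 CPM. The log2 fold change was 0.95 (95% confidence interval -0.83 to 2.74), and 3 of 6 7c kidneys were above the vehicle range. Leaving out a replicate gave 0.48 to 1.69, the highest without vehicle replicate 3. The whole gene lies within Syn1 on the opposite strand, which had at most 16 counts in a kidney, and the strand setting of the counting is not given in the sources used here.

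The keratin genes gave log2 fold changes of 0.20 for Krt8 (95% confidence interval -0.29 to 0.70) and 0.15 for Krt18 (-0.73 to 1.04). Krt8 (ENSMUSG00000049382, chromosome 15, 101905133 to 101912917, minus strand) had 117, 216, 135 and 138 CPM in vehicle kidneys and 122 to 269 CPM in 7c kidneys. Krt18 (ENSMUSG00000023043, chromosome 15, 101936615 to 101940462, plus strand) had 7.32, 26.3, 7.68 and 10.3 CPM in vehicle kidneys and 8.52 to 28.7 CPM in 7c kidneys. A kidney of each treatment stood above the rest for both genes, vehicle replicate 2 and 7c replicate 5. Without 7c replicate 5 the Krt18 value was -0.17.

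Epcam (ENSMUSG00000045394, chromosome 17, 87943407 to 87958557, plus strand) had 37.0, 47.4, 44.7 and 38.2 CPM in vehicle kidneys and 40.5 to 57.2 CPM with a median of 48.9 in 7c kidneys. Of the 6 7c kidneys, 4 were above the vehicle range. The log2 fold change was 0.23 (standard error 0.121, unadjusted p = 0.0826 by edgeR), and it was above 0 under all alternatives run. The 5 markers of collecting duct, a segment that makes Epcam, had overlapping sums with a median of 422 CPM in 7c kidneys and 359 CPM in vehicle kidneys, and none was at 0. Their part in the Epcam value was not tested. Sox9 (ENSMUSG00000000567, chromosome 11, 112673009 to 112678586, plus strand) had only 12 to 30 counts per kidney. It had 0.523, 0.529, 0.642 and 0.489 CPM in vehicle kidneys and 0.303 to 0.939 CPM in 7c kidneys, where 5 of 6 were under the vehicle range and 1 above it. Its log2 fold change was -0.15 (95% confidence interval -1.01 to 0.71). As with Timp1, the whole Sox9 gene lies within a gene on the opposite strand, BC006965, which had at most 4 counts in a kidney.

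**Figure D1:**
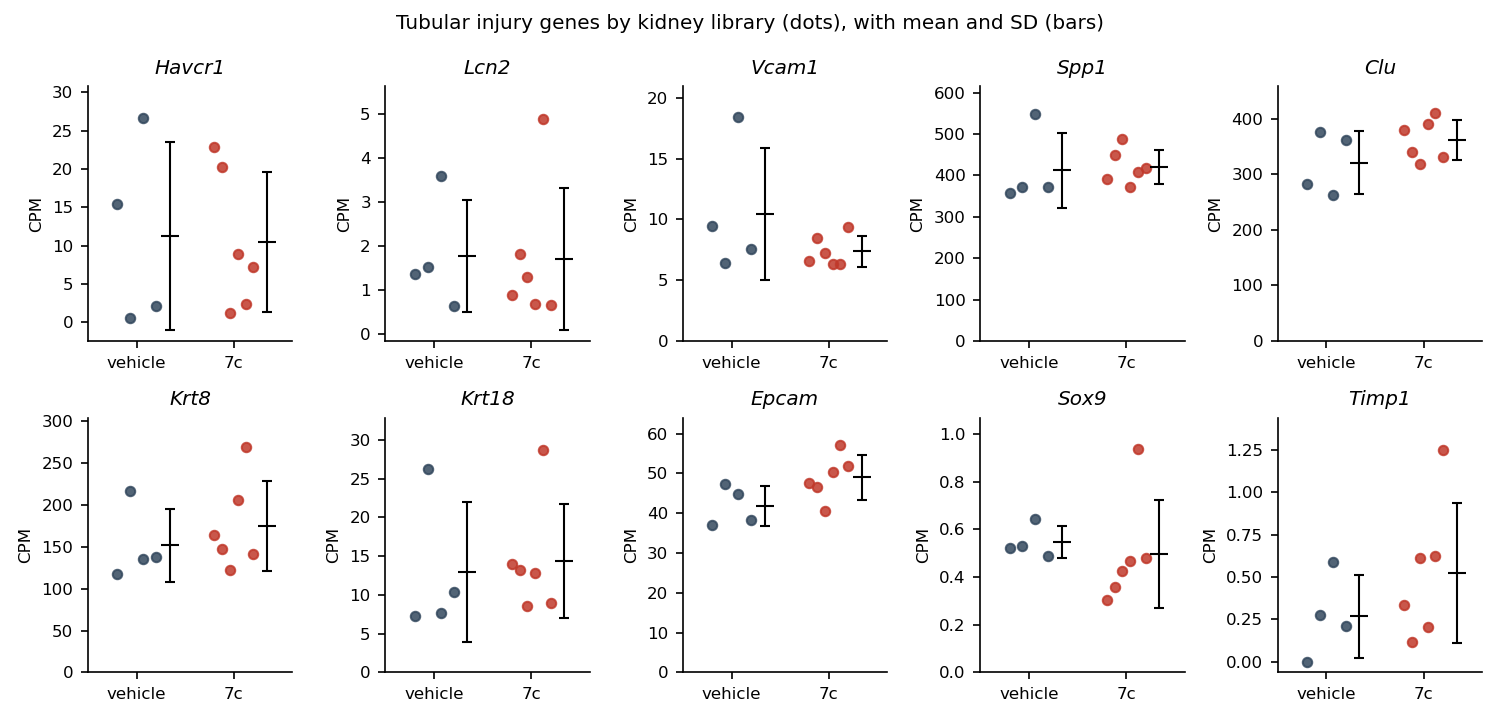
Each dot is a kidney library (4 vehicle, 6 7c), the y axis is CPM, and the bars are the mean with its SD. The groups overlap for all 10 genes, and Havcr1 spreads from 0.613 to 26.6 CPM within the vehicle group.

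Other genes of tubule injury and repair were read from a fixed list of 31, of which 30 were tested in kidney and 0 were called. Their median log2 fold change was 0.04, and 3 of the 30 passed an unadjusted p under 0.05, beside 2.61% of all genes. Prom1, a marker of scattered progenitor-like tubule cells, had 36.3 to 59.5 CPM in 7c kidneys and 55.9 to 94.9 CPM in vehicle kidneys (log2 fold change -0.55, unadjusted p = 0.00711 by edgeR). Atf3, a stress-response transcription factor, had 1.20 to 3.00 CPM and 0.446 to 1.34 CPM (1.17, unadjusted p = 0.00731 by edgeR). Ccl2, a chemokine that draws monocytes, had 0.376 to 0.909 CPM and 0.768 to 2.92 CPM (-1.14, unadjusted p = 0.0155 by edgeR). The groups overlapped for all 3, and the signs differed between them.

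Of 17 transporters and other genes of the healthy tubule that are known to fall on injury, 0 were called and 0 passed an unadjusted p under 0.05. Their median log2 fold change was -0.02, with 8 above 0 and 9 below. The smallest unadjusted p belonged to Slc5a12, a lactate transporter (log2 fold change -0.49), Aqp1, a water channel (0.12), and Egf, the growth factor of the distal tubule (-0.21). Of 19 partners of the members, such as receptors and proteases, 18 were tested and 0 were called, with a median of 0.03. Itga4, a subunit of the integrin that binds Vcam1, had a value of -0.54, Cldn7, a claudin that binds Epcam, 0.25, and Havcr2, a relative of Havcr1 on immune cells, -1.03.

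Marker sums of other cell types gave the setting of these values. The 6 macrophage markers summed to 116 to 209 CPM in 7c kidneys and 125 to 191 CPM in vehicle kidneys, and the 5 fibroblast markers to 175 to 206 and 161 to 228 CPM. Neutrophils store the Lcn2 protein in granules, and their 6 markers summed to 1.98 to 4.88 and 1.12 to 2.38 CPM. The sums of the 5 adipocyte markers narrowly did not overlap, at 49.9 to 136 CPM in 7c and 34.8 to 49.5 CPM in vehicle kidneys. All 5 had an unadjusted p under 0.05, beside 2.61% of all genes, and 0 were called. The 6 urothelial markers summed to 2.19 to 7.98 and 1.36 to 3.46 CPM, and the 5 tested all had a log2 fold change above 0, with 1 at an unadjusted p under 0.05 and 0 called. The 7 hepatocyte markers summed to 98.4 to 355 CPM in 7c and 220 to 350 CPM in vehicle kidneys. Their median log2 fold change was -1.58, with 6 of 7 below 0, 5 at an unadjusted p under 0.05 and 0 called. None of the markers of these 6 lists was at 0 in all kidneys of a group. Their part in the members' values was not tested.

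In liver, 7c mice had more Lcn2 and less Epcam RNA in every library than any vehicle mouse, but neither passed the adjusted test. Of the 8 members tested, 0 were called, beside 1 of 15012 genes or 0.00666%, and DESeq2 and limma-voom also called 0 of the 8. The adjusted p was 1.00 for all 8 (edgeR). At an unadjusted p under 0.05, 3 of 8 members passed, Lcn2, Epcam and Spp1, beside 3.76% of all genes. The median log2 fold change of the 8 was -0.05, with 3 above 0 and 5 below, against 0.00 over all genes.

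Lcn2, which hepatocytes make in the acute-phase response, had 1.32, 1.20, 1.31 and 1.52 CPM in vehicle livers. The 7c livers had 1.88 to 4.31 CPM with a median of 2.63, or 52 to 134 counts against 40 to 52. All 6 lay above the vehicle range, a pattern that 0.320% of liver genes showed. The mean was 2.81 ± 0.936 CPM (SD, n = 6) against 1.34 ± 0.133 CPM (SD, n = 4), a ratio of 2.10 (exact permutation test, two-sided, p = 0.00952, where 0.00476 is the smallest it can give). The log2 fold change was 1.07 (standard error 0.299, 95% confidence interval 0.42 to 1.71, unadjusted p = 0.00327 by edgeR). It stayed between 0.91 and 1.26 under all alternatives, whose adjusted p ran from 0.348 (DESeq2) to 1.00.

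Acute-phase markers summed to 2410 to 3041 CPM in 7c livers and 2155 to 2966 CPM in vehicle livers. All 7 had fold changes above 0 and 0 were called. Examples are Orm2 with 0.52 (unadjusted p = 0.0291 by edgeR), Saa1 with 0.38 and Saa2 with 0.57 on the log2 scale. The 6 neutrophil markers, of which 1 was at 0 in all 7c livers and 2 in all vehicle livers, summed to 0.997 to 3.47 CPM and 1.71 to 2.87 CPM, so the groups overlapped. The part of either in the Lcn2 value was not tested.

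Epcam had 3.10, 1.38, 1.48 and 2.28 CPM in vehicle livers and 0.332 to 1.26 CPM with a median of 0.812 in 7c livers. These were 48 to 94 counts against 10 to 35. All 6 7c livers lay under the vehicle range, a pattern that 0.400% of liver genes showed. The mean was 0.783 ± 0.323 CPM (SD, n = 6) against 2.06 ± 0.804 CPM (SD, n = 4), a ratio of 0.381 (exact permutation test, two-sided, p = 0.00952). The log2 fold change was -1.39 (standard error 0.405, 95% confidence interval -2.26 to -0.52, unadjusted p = 0.00427 by edgeR). It ran from -1.72 to -1.12 over the alternatives, with adjusted p from 0.0695 (both tissues in 1 fit) to 1.00.

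In a healthy liver Epcam belongs to bile duct cells and hepatic progenitors. The 4 cholangiocyte markers Krt7, Krt19, Cftr and Tspan8 summed to 1.46 to 4.33 CPM in 7c livers and 3.39 to 4.95 CPM in vehicle livers, which overlapped, and none was at 0 in all livers of a group. Of these, Krt19 had a log2 fold change of -0.87 (95% confidence interval -1.78 to 0.04), Tspan8 -0.13 and Krt7 0.00. Sox9 and Spp1, which bile duct cells also express, had -0.27 (95% confidence interval -0.99 to 0.46) and -0.45. A library of this group, 7c replicate 6, held 606 CPM of skeletal muscle markers, against at most 1.79 CPM in the other 9 livers. Without it the log2 fold change was -1.57 for Epcam and 1.16 for Lcn2. The part of bile duct cells in the Epcam value, and that of the smaller 7c libraries, was not tested.

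The 250 bases before the RefSeq start of Epcam are shown because of the 8 members tested in both tissues this gene had the largest interaction of treatment and tissue, given below. The window was taken from RefSeq (table on GRCm38.p6) and matched once in GRCm39, at chr17:87943157-87943406 on the plus strand. Capitals mark the GC box, found on the minus strand as the reverse complement of GGGCGG, 58 bases before the start.
Epcam: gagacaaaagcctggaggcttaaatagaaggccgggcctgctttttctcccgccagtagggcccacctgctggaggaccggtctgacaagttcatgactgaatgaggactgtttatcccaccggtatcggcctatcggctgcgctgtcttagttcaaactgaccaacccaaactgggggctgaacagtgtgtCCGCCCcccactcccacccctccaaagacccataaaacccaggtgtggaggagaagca

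Spp1 had 43.3, 30.6, 23.9 and 28.1 CPM in vehicle livers and 16.8 to 29.9 CPM in 7c livers, with 3 of 6 under the vehicle range. Its log2 fold change was -0.45 (standard error 0.185, unadjusted p = 0.0284 by edgeR). Vcam1 spread more in 7c livers, from 2.96 to 10.2 CPM, than in vehicle livers, which had 5.77, 4.44, 5.03 and 4.74 CPM, and its log2 fold change was 0.41 (95% confidence interval -0.26 to 1.08). Clu (-0.05), Krt8 (-0.04) and Krt18 (0.00) had values near 0, and for Clu the 95% confidence interval ran only from -0.24 to 0.13. Timp1 had 0 to 8 counts per liver. Havcr1 had 1 count in all 10 livers together.

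**Figure D2:**
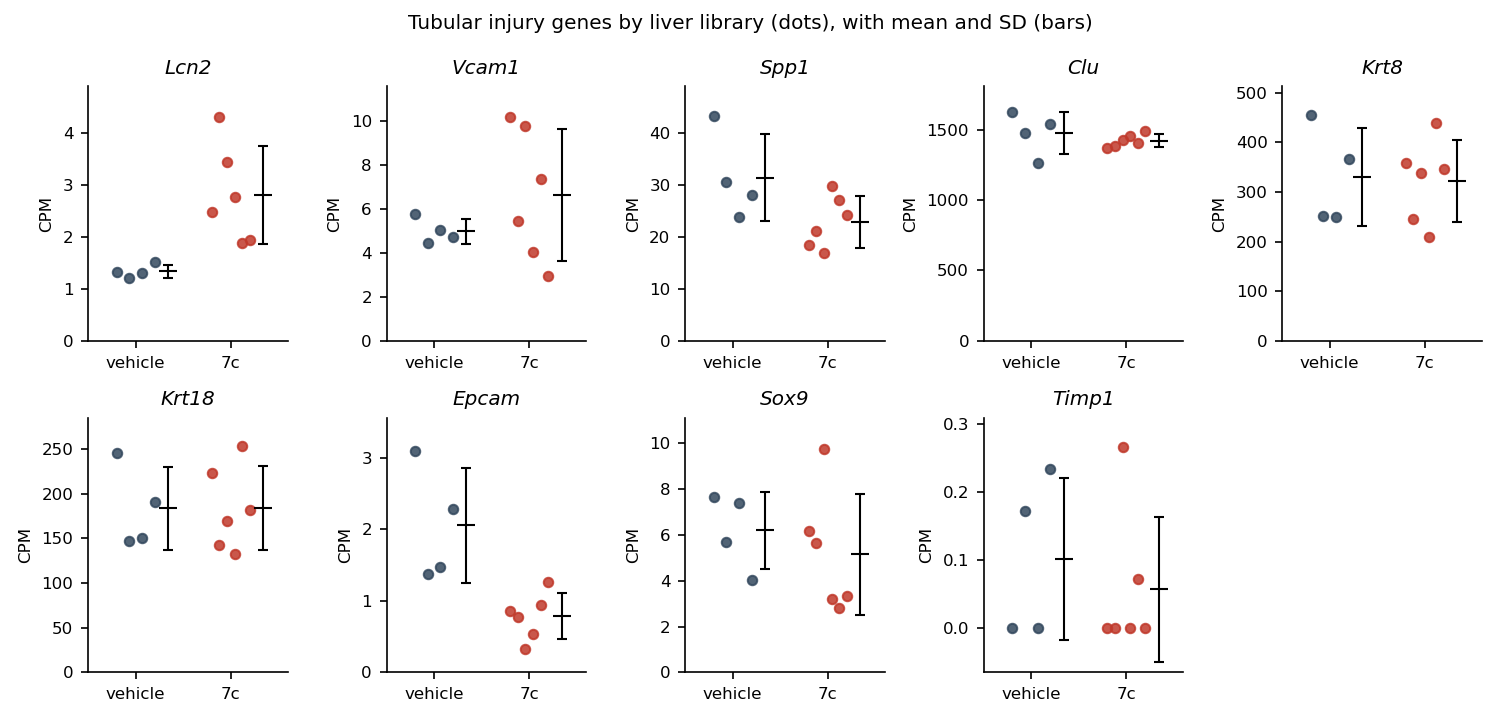
Each dot is a liver library (4 vehicle, 6 7c), the y axis is CPM, and the bars are the mean with its SD. Lcn2 is higher and Epcam lower in all 6 7c livers than in any vehicle liver, and the other genes overlap. Havcr1, with 1 count in 10 livers, is not drawn.

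**Figure D3:**
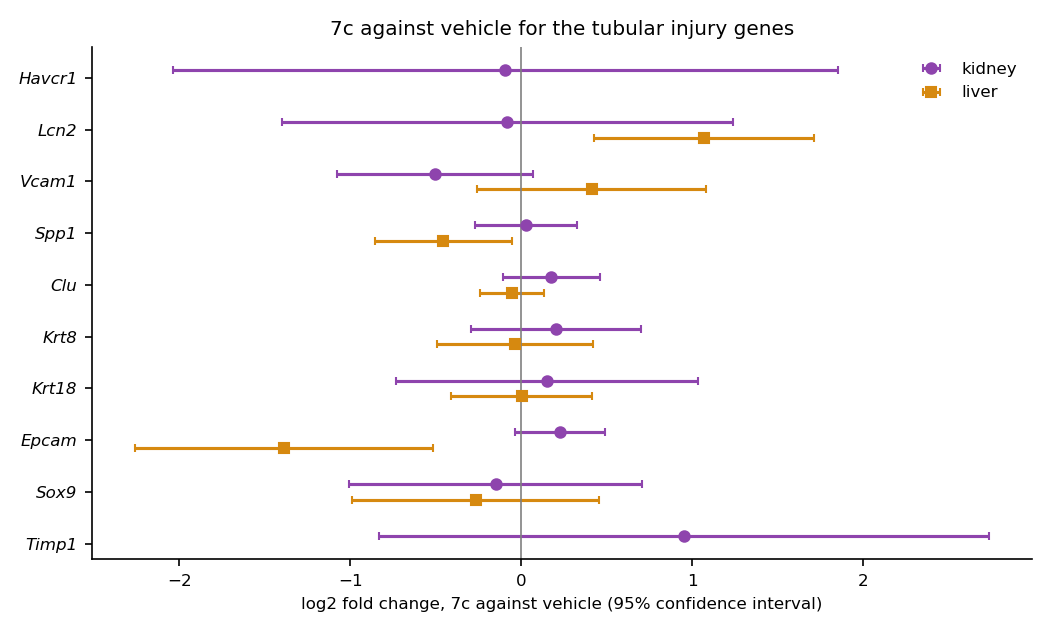
Log2 fold change of 7c against vehicle (x axis) with its 95% confidence interval for each gene, in kidney (circles) and liver (squares). The kidney intervals all include 0. The liver intervals of Lcn2, Spp1 and Epcam do not, before adjustment over all genes.

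The Epcam value was above 0 in kidney and below 0 in liver, and the treatment by tissue interaction was tested on the 14163 genes that passed in both tissues. The fit took the libraries as unpaired, although kidneys and livers came from the same mice, since the labels do not match them. The interaction of Epcam, kidney minus liver, was 1.63 in log2 units (standard error 0.337, 95% confidence interval 0.93 to 2.33). The unadjusted p was 8.86e-05 and the adjusted p 0.190 by edgeR's quasi-likelihood test, so it was not called. Of the 8 members, 0 were called, beside 1 gene in all or 0.00706%. The likelihood ratio test of edgeR called Epcam (adjusted p = 0.00111), as 1 of 22 genes that it called among the 14163. DESeq2 gave the adjusted p of Epcam as NA, and over the other alternatives the adjusted p ran from 0.0741 to 1.00. At an unadjusted p under 0.05, 2 of the 8 passed, Epcam and Vcam1 (-0.90, unadjusted p = 0.0488 by edgeR), beside 2.49% of all genes.

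To see how the tissues differ without treatment, the vehicle kidneys were compared with the vehicle livers. These tests, with the permutation test, took the libraries as unpaired, so their p-values do not take into account that the tissues shared mice. The fit held 18598 genes that passed in either tissue, of which 52.8% were called. Havcr1 and Timp1 passed through kidney alone and are given as values with no call. Of the 8 members that passed in both tissues, 6 were called by edgeR's quasi-likelihood test, 2 higher in kidney and 4 lower, beside 50.6% of the 14163 genes that did so. The median log2 difference was -0.99 over the 8 and -0.0619 over these genes. Limma-voom called 6, beside 52.4% of the genes, and DESeq2 called 6, beside 53.6%. For each of the 6 the 4 kidneys and 4 livers did not overlap (exact permutation test, two-sided, p = 0.0286 each, the smallest that 4 against 4 can give). Such full separation was common, with 23.2% of the 14163 genes higher in all 4 kidneys and 26.6% lower in all 4.

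Spp1 and Epcam were higher in kidney. Spp1 had a log2 difference of 3.08 (0.227 as its standard error, adjusted p = 5.45e-07 by edgeR) and Epcam one of 3.72 (0.264, adjusted p = 3.94e-07 by edgeR). The levels per kb of exon, on a scale common to both tissues, were 116 ± 25.1 and 13.7 ± 3.73 CPM per kb for Spp1 (SD, n = 4 each). Havcr1 had 0 counts in all 4 vehicle livers, and its mean in vehicle kidneys was at least 80.7-fold higher than a floor of 3 counts per liver library. That bound rested on the kidney of vehicle replicate 3, without which it was 43.7-fold. Most low counts in the table are even, and if a pair of counts stands for 1 fragment, a floor of 3 fragments gives a bound of 40.3-fold, or 21.9-fold without that kidney.

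Clu, Krt8, Krt18 and Sox9 were lower in kidney than in liver, although all 4 are read as signs of tubule injury. Krt18 differed most, with a log2 difference of -4.45 (standard error 0.432, adjusted p = 5.48e-06, edgeR), and its partner Krt8 differed by -1.75 (0.251, adjusted p = 1.26e-04, edgeR). Clu, which hepatocytes secrete into plasma, differed by -2.83 (0.180, adjusted p = 1.61e-07, edgeR), and Sox9 by -4.12 (0.316, adjusted p = 7.71e-07, edgeR). Lcn2 (-0.22) and Vcam1 (0.44) were not called. In the 7c libraries the same contrast called 7 of the 8, beside 63.8% of the genes, with Lcn2 at -1.39 (adjusted p = 0.0154, edgeR).

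The exon length used here takes in all exons of all annotated transcripts of a gene, such as 8992 bases for Vcam1, 5632 for Clu and 1437 for Krt18. It can exceed the length of the main transcript, so the order between genes depends on it. Within vehicle kidney, levels per kb of exon put Spp1 first, at 100 to 153 CPM per kb over the 4 kidneys. Krt8 (47.7 to 88.9) and Clu (36.9 to 53.8) followed and overlapped each other. Epcam (11.4 to 14.7), Krt18 (4.05 to 14.7) and Havcr1 (0.190 to 8.17 CPM per kb) each overlapped the next in order. Vcam1 (0.573 to 1.62), Lcn2 (0.191 to 1.08), Timp1 (0 to 0.239) and Sox9 (0.0934 to 0.122 CPM per kb) were the lowest, and each of these ranges overlapped that of its neighbour. In vehicle liver the order of mean levels began with Clu at 323 ± 35.6, Krt8 at 208 ± 61.7 and Krt18 at 158 ± 39.2 CPM per kb (SD, n = 4 each). The liver ranges of Clu and Krt8 overlapped, as did those of Krt8 and Krt18. Spp1 (10.2 to 18.9 CPM per kb) stood apart from its neighbours. Sox9 (1.17 to 2.27) overlapped Epcam (0.676 to 1.48), and Epcam overlapped Vcam1 (0.628 to 0.794) and Lcn2 (0.584 to 0.704 CPM per kb). Timp1 was at 0 to 0.145 CPM per kb.

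**Figure D4:**
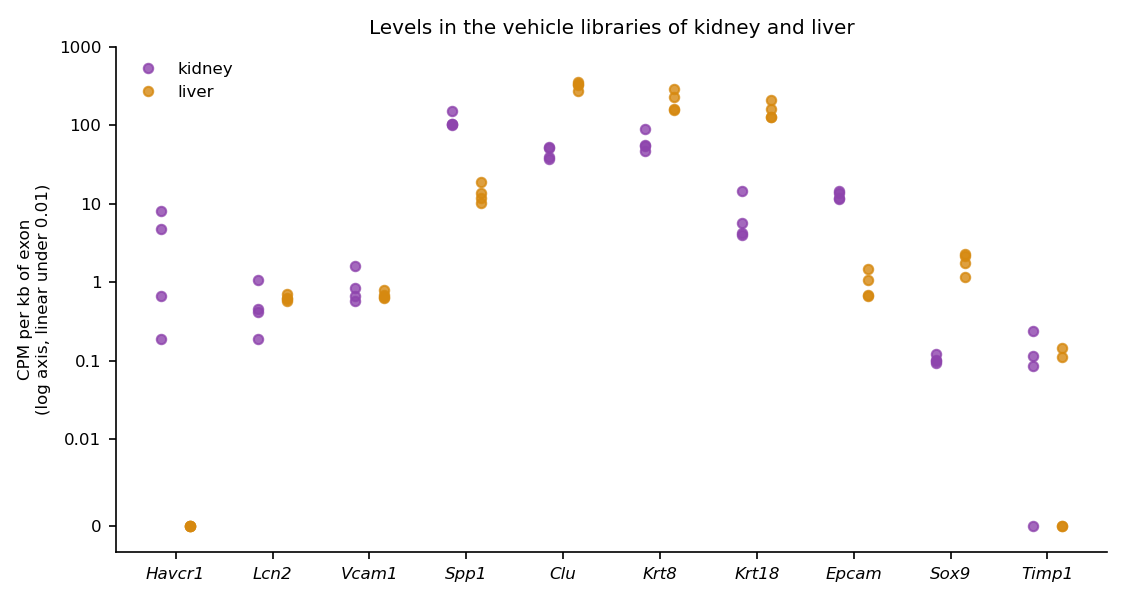
Level in CPM per kb of exon (y axis, logarithmic above 0.01 and linear below) for each gene in the 4 vehicle kidneys and the 4 vehicle livers, each a dot. Havcr1 is at 0 in all 4 livers, Spp1 and Epcam are higher in all 4 kidneys, and Clu, Krt8, Krt18 and Sox9 are higher in all 4 livers, beside 23.2% and 26.6% of the 14163 genes that passed in both tissues.

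Few pairs of the injury genes varied together across the 10 kidneys. Of 45 pairs of members, 2 passed an adjusted p of 0.05 for Pearson's r of log2 CPM by permutation test, and the median r was 0.18. Krt8 and Krt18 had r = 0.919 (adjusted permutation p = 0.00405) and rho = 0.939 (adjusted permutation p = 0.00990), and r was 0.772 without the 2 kidneys farthest from the median and 0.902 in the 7c kidneys alone. Vcam1 and Clu ran opposite to each other, with r = -0.877 (adjusted permutation p = 0.00742) and rho = -0.903 (adjusted permutation p = 0.0144). That r was -0.767 without the 2 farthest kidneys and -0.764 in the 7c kidneys alone. The 4 vehicle kidneys were too few for a value of their own. By rho, Clu also went with Krt8 (0.891, adjusted permutation p = 0.0168) and Krt18 (0.879, adjusted permutation p = 0.0189), whose adjusted permutation p for r was 0.0747 each. Havcr1 had r = 0.0353 with Lcn2 and 0.528 with Vcam1, and neither passed.

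The keratin pair moved together in liver as well, where 28 pairs were compared and this was the pair that passed, with r = 0.957 (adjusted permutation p = 0.000840), rho = 0.964 (adjusted permutation p = 0.00140), and r = 0.938 without the 2 farthest livers. The ratio of Krt8 to Krt18 in CPM was 8.22 to 17.6 in kidneys and 1.57 to 1.99 in livers. The kidneys highest in both keratins, 7c replicate 5 and vehicle replicate 2, also had the highest level of Kap, an androgen-regulated proximal tubule gene, at 60650 and 51859 CPM. The other 8 kidneys had 23725 to 37589 CPM. Thick limb and distal tubule markers were lowest in the same kidneys, at 3830 and 4244 CPM against 4696 to 6086 CPM. The other 6 proximal tubule markers summed to 10983 and 11242 CPM there, within the 10715 to 12322 CPM of the other 8 kidneys, so Kap did not stand for its list. Collecting duct, macrophage and hepatocyte marker sums were also highest in 7c replicate 5 and vehicle replicate 2, and adrenal gland sums lowest. Urothelial, neutrophil, lymphocyte, adipocyte and acute-phase sums were highest in 7c replicate 5 alone. Podocyte, endothelium and fibroblast sums did not set both kidneys apart. The part of Kap, of the distal segments or of these other lists in the keratin values was not tested. Kap and these lists were picked out after their values were seen.

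**Figure D5:**
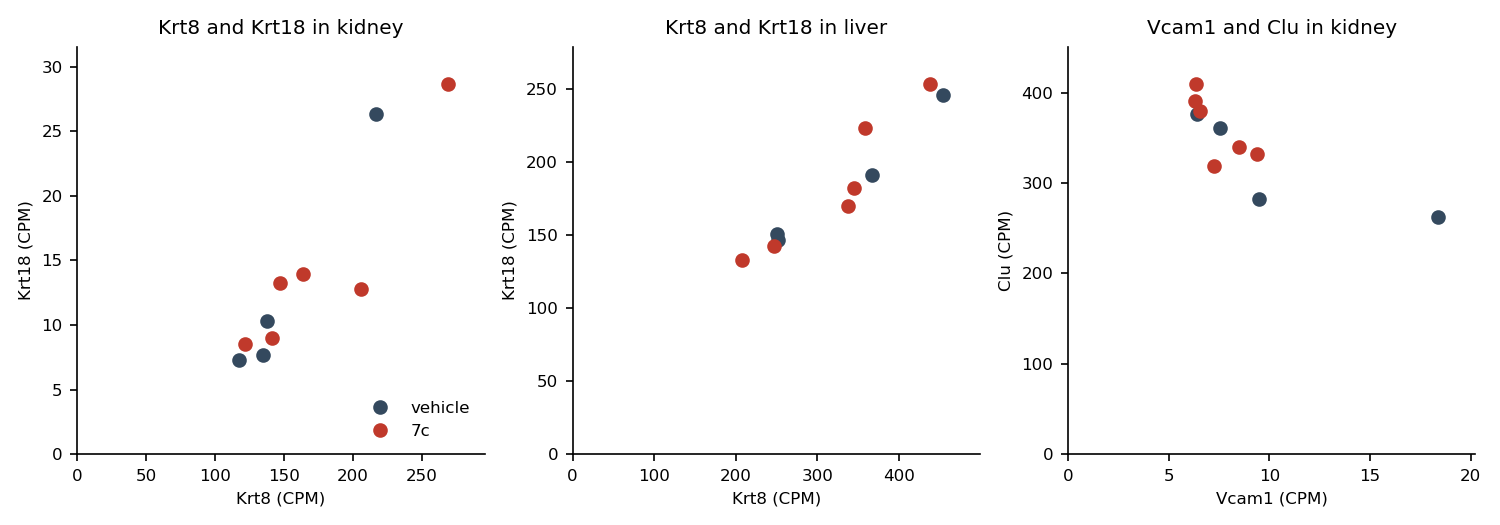
Each dot is a library, 7c or vehicle by colour, with CPM on both axes. Krt18 rises with Krt8 in kidney (r = 0.919) and liver (r = 0.957), and Clu falls as Vcam1 rises in kidney (r = -0.877), where vehicle replicate 3 is the dot at 18.4 CPM of Vcam1.

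Krt8 and Krt18 are neighbours on chromosome 15, 23.7 kb apart and facing away from each other, and the bases before both genes are shown because the pair moved together. Only the part of each RefSeq window that lies before the GENCODE vM39 gene is printed, at chr15:101912918-101913027 on the minus strand for Krt8 and chr15:101936401-101936614 on the plus strand for Krt18.
Krt8: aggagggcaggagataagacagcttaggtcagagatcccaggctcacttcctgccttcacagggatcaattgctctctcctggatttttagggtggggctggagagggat
Krt18: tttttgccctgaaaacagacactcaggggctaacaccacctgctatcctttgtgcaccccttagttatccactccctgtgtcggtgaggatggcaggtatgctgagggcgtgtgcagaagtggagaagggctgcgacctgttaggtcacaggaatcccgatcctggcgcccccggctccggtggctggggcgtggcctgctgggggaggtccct

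RefSeq windows of 250 bases before a start were matched for 7 of the 10 members (10 windows), and not for Vcam1, Clu and Sox9. They were searched on both strands for the letters TATAAA (in 12.4% of 32851 mouse windows), CCAAT (33.8%), GGGCGG (the GC box, 32.7%), TGANTCA (the AP-1 motif, 6.75%) and TTCNNNGAA (the STAT motif, 7.02%). None of these motifs contains another. The Krt8 and Krt18 windows held none of the 5, so no capitals stand in them. Lcn2, Epcam and Timp1 held a GC box, Spp1 and Timp1 held CCAAT, and Spp1 held TATAAA. The AP-1 and STAT motifs were in none of the 10 windows.

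Among 14238 genes with a mean of at least 1 CPM in kidney, those most like Havcr1 by Pearson's r of log2 CPM over the 10 kidneys were Cd55 (0.886), Sparcl1 (0.859) and Col3a1 (0.853). Those most like Lcn2 were Rab11b-ps2 (0.908), Phf14 (0.871) and Ltbp2 (0.868), and those most like Vcam1 were Gpm6b (0.926), Mdfic (0.924) and Phldb2 (0.924). These are the highest of many values over 10 libraries and describe these libraries. Cd55, which encodes a complement inhibitor, ran from 7.46 to 20.5 CPM, a far smaller span than that of Havcr1.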

How the data were processed

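The deposited values are raw counts per gene, which the authors made by aligning reads of poly(A)-selected RNA with STAR 2.7.11b to GRCm39 and counting with featureCounts 2.0.6, as the study's methods and the submitters' processing notes state. The annotation release is not given in the sources used here. Gene positions and lengths came from GENCODE vM39, with the exons of all transcripts of a gene merged for its length. All 20 columns were mapped to a sample by their labels. Of counts from 2 to 10, 86.3% were even, and of those from 201 to 2000, 58.7%, so a low count may stand for fewer fragments than its number.

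The members and gene lists were chosen with earlier results of these data known. A gene entered the tests of a tissue if 50% or more of its libraries held 10 counts or more, and edgeR 4.0.16 was used (R 4.3.3, TMM, quasi-likelihood F-test, treatment as the only term), adjusted by Benjamini-Hochberg over all genes at 0.05. Exact permutation tests were two-sided over 210 assignments within a tissue and 70 between the vehicle tissues. Correlations were of log2 CPM (prior count 2), with 100000 permutations. Alternatives were DESeq2 1.42.0, limma-voom of limma 3.58.1, the likelihood ratio test, RLE size factors, other filters, both tissues in 1 fit, the replicate block, counts halved (added after the data were seen) and leaving out each replicate. The tests were run on simulated data first. Within a tissue, replicates are separate mice by the study's methods, while kidney and liver libraries came from the same mice.

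The text names all 10 members, the genes of a list past the threshold (up to 5) or else the 3 of smallest unadjusted p in kidney, and the 3 genes most like Havcr1, Lcn2 and Vcam1. Marker lists are given as sums, with single genes where a result of a member turned on them. Intervals and floors cover counting error or spread between libraries only. The values of 1 marker gene are not reported here.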

Additional observations from a re-analysis of the deposited data

Results flagged for a closer look

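Of 36 groups of a member, a tissue and a treatment, 5 held a library that stood apart from its group by Dixon's test. Chance gives about 1 in 20 for independent groups of normal values. These groups share libraries, and 3 of the 5 rest on 1 kidney, so their count cannot be set against that share. The kidney of 7c replicate 5 was the highest of its 6 for Lcn2 (4.88 CPM), Krt18 (28.7 CPM) and Sox9 (0.939 CPM). The kidney of vehicle replicate 2 was the highest of its 4 for Krt18 (26.3 CPM), and that of vehicle replicate 3 was the highest of its 4 for Spp1 (549 CPM). Leaving out each replicate in turn, the log2 fold change of Sox9 in kidney ran from -0.42 to -0.0333, and the ranges of the others are given below.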

How the results depend on the processing

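No member was called for 7c in kidney or liver under any alternative run, and of the 8 compared between the vehicle tissues, 6 were called in the report (50.6% of genes), 7 in the 7c libraries (63.8% of genes) and 6 under each other alternative. Counts of low members (Timp1, Sox9, Lcn2, Epcam in liver) limit their precision. Genes called in kidney, 0 in the report, were 18 with DESeq2, 18 with both tissues in 1 fit, 14 with the likelihood ratio test, 3 without a filter, 2 with limma-voom, 2 with counts halved, and 0 to 3 leaving out a replicate (3 without 7c replicate 5). In liver, 1 in the report, they were 6 with DESeq2, 7 with the likelihood ratio test, 4 without a filter, 4 with both tissues in 1 fit, 2 with filterByExpr, and 0 to 2 leaving out a replicate. For the interaction, 1 in the report, they were 22 with the likelihood ratio test, of which 1 was a member, 16 with DESeq2, 4 where the filter passed in either tissue, and 0 to 6 leaving out a replicate. The causes were not tested.

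With the replicate block, genes called were 0 in kidney, 0 in liver and 0 for the interaction (adjusted p of Epcam 0.554 by edgeR), 6 of 8 members were called between the vehicle tissues, and the Havcr1 value in kidney was 1.03, that of Krt18 in liver -0.13. The labels do not say that a number marks a mouse. Within a tissue equal numbers are different mice, whose deviations correlated from -0.0455 to 0.21, with 1 of 8 over 0.1, and 7c replicates 5 and 6 have no vehicle of their number, so there the block rests on a shared number alone. Between tissues, the deviations of equal numbers correlated from 0.0115 to 0.259, with 7 of 10 over 0.1, and 8 of 10 numbers correlated best with their own. By the study's text the tissues shared mice. That an equal number marks 1 mouse is a hint from the data alone, and it bears on the fits across tissues alone. The interaction and tissue tests of the report treated the libraries as unpaired, so their p-values do not take the shared mice into account.

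The direction turned for Havcr1 in kidney (0.49 with limma-voom, -0.48 to 0.79 leaving out a replicate), and, leaving out a replicate, for Lcn2 (-0.75 to 0.52), Spp1 (-0.0336 to 0.20) and Krt18 (-0.17 to 0.77) in kidney. In liver it turned for Krt8 (-0.15 to 0.16) and Krt18 (-0.11 to 0.18, and -0.0029 with limma-voom), and in the interaction for Krt8 (-0.0480 to 0.56), Krt18 (-0.22 to 0.84) and Sox9 (-0.28 to 0.44). Between the vehicle tissues it turned for Lcn2 (-0.82 to 0.0541), and in the 7c libraries for Vcam1 (-0.50). Over single members, 538 values kept their direction and side of the threshold, 34 turned direction and 2 came to pass it.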
